A study of Mus musculus with 12 samples.

Results

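The 10 genes described here encode the interferon-inducible proteasome subunits and the machinery that loads peptides onto major histocompatibility complex (MHC) class I molecules: Psmb8, Psmb9, Psmb10, Psme1, Psme2, Tap1, Tap2, Tapbp, Tapbpl and Erap1. They were chosen by gene symbol from the 15002 genes in the tables, and all 10 passed the filter on low counts that left 11900 genes for testing. RNA was sequenced from IEC4.1, a cell line of mouse intestinal epithelial origin, in 4 conditions with 3 libraries each. Cells received siR_Ctrl, a scrambled siRNA, or siR_Nostrill, a pool of 3 siRNAs against the long noncoding RNA Nostrill, and were left without interferon or given IFN-γ. The labels give 24 h for every library, whereas the methods give 24 h of transfection before IFN-γ, and a figure legend of the study gives 4 h of IFN-γ at 1 ng/ml. All 4 conditions therefore share the transfection, and siR_Ctrl cells were not untreated cells. Nostrill is noncoding and its own level is not analysed here. The knockdown was therefore not checked in these libraries.

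Proteasomes cut cytosolic proteins into peptides, and IFN-γ is known to induce 3 catalytic subunits that replace their constitutive counterparts during assembly of the 20S core. Psmb8 replaces Psmb5, Psmb9 replaces Psmb6 and Psmb10 replaces Psmb7, giving the immunoproteasome. Psme1 and Psme2 form the PA28 regulator, which caps the ends of the core. Peptides then enter the endoplasmic reticulum through the transporter built from Tap1 and Tap2. Tapasin, the product of Tapbp, bridges the transporter and class I molecules and favours tight-binding peptides, Tapbpl encodes the related editor TAPBPR, and Erap1 encodes an aminopeptidase that trims peptides inside that compartment. Intestinal epithelial cells present peptides on class I and respond to IFN-γ released by lymphocytes.

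In GRCm38.p6, Tapbp (chr17:33919478-33929290), Psmb9 (chr17:34182030-34187330), Tap1 (chr17:34187556-34197225), Psmb8 (chr17:34198195-34201454) and Tap2 (chr17:34204479-34216321) lie in the MHC region of chromosome 17. Psme1 (chr14:55578494-55581527) and Psme2 (chr14:55587440-55591101) are neighbours on chromosome 14. Psmb10 (chr8:105935728-105938392), Erap1 (chr13:74639573-74693205) and Tapbpl (chr6:125223927-125231860) stand apart. The files list the 5 chromosome 17 members on an alternate scaffold, and each has 4 placements in the annotation. The sources used here do not say how reads with several placements were counted, so the levels of these 5 genes may depend on it. The estimated counts were whole in all 12 libraries for 7 members, and were not whole in 4 libraries for Tapbp and in 11 for both Psme2 and Tapbpl.

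Psmb9 and Tap1 are transcribed away from each other from start sites separated by 225 bases. Their promoter windows, each running from 250 bases before to 50 bases after a start site in RefSeq for GRCm38.p6, share 275 bases. The window of Tap1 (chr17:34187306-34187605, plus strand) is shown because it serves both genes, which had the largest IFN-γ responses among the members. Capitals mark the bases between the start sites of Psmb9 and Tap1.
Psmb9 and Tap1: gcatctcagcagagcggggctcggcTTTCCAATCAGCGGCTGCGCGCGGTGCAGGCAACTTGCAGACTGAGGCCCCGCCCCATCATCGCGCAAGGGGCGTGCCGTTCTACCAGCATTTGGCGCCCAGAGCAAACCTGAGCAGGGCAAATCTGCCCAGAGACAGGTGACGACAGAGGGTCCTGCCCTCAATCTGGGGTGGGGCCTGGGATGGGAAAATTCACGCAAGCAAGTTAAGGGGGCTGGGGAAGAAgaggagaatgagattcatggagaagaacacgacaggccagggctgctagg
Promoter windows were found for 8 of the 10 members, 9 windows in all, with 2 windows for Psme2. Tap2 and Tapbpl had no window in the table used. In 7 windows the start site is the 5′ end of the gene as placed above, while in the other 2 it is that of a transcript starting inside the gene, 80 bases in for the second window of Psme2 and 280 bases in for Erap1, so the Erap1 window lies wholly within the gene. Each window was searched on both strands for TTCNNNGAA, the letters of a gamma-activated site, and for GAAANNGAAA, the core letters bound by interferon regulatory factors, whose reverse complement is TTTCNNTTTC. The first was present in 1 of the 9 windows and in 8.3% of all 32851 promoter windows of the same length. The second was present in 2 of the 9 windows and in 3.44% of all windows. The 3 windows with a match are shown with the matched letters in capitals, and no match overlapped a match to the other motif.
Psmb8, chr17:34197945-34198244, plus strand, first matched base at position -97 from the start site: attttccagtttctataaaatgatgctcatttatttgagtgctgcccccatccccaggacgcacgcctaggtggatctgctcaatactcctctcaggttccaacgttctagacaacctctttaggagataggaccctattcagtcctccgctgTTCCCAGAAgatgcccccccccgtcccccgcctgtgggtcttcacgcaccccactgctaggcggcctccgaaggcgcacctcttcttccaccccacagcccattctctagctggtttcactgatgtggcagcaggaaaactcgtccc
Psme1, chr14:55578244-55578543, plus strand, first matched base at position 10: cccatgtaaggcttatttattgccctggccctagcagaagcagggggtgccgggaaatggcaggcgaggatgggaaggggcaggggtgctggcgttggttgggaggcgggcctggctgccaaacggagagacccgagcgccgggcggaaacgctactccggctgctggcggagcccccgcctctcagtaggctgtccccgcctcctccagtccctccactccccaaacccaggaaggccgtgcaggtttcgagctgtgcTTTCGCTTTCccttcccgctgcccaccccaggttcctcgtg
Erap1, chr13:74639603-74639902, plus strand, first matched base at position -4: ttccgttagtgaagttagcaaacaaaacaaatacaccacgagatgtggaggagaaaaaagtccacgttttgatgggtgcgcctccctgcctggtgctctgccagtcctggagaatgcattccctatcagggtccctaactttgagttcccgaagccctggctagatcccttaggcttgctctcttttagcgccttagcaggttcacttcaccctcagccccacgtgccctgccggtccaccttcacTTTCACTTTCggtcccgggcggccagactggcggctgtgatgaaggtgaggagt
The windows of Psmb9, Psmb10, Psme2, Tap1 and Tapbp held neither set of letters. A match describes letters only, and binding was not measured here.

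The libraries held 17824306 to 19093204 reads assigned to genes. How each library stood off the mean of its condition was related to transcript length, with an absolute Spearman coefficient from 0.221 to 0.826 across genes. siR_Ctrl replicates 1 and 2 were the most extreme, in opposite directions. Fold changes also followed length, with coefficients from -0.654 to 0.647 in the 5 comparisons, which bears on the members because their effective lengths run from 602 nt for Psmb9 to 4178 nt for Erap1. Of 9 epithelial markers, 5 were listed and only Krt19 reached 1 TPM (a level scaled for transcript length and for the library total), with a summed level of 1.9 to 4.14 TPM per library, whereas the summed level of 5 fibroblast markers was 465.8 to 1145.22 TPM. For both lists the ranges of the 4 conditions overlapped. After removal of the length trend, described with Erap1, fibroblast markers called with IFN-γ were 1 in siR_Ctrl and 2 in siR_Nostrill cells, and 1 was called between the siRNAs with IFN-γ, all lower, where 10.8%, 14.6% and 9.85% of all tested genes passed. The labelled epithelial identity was therefore not seen in the listed epithelial markers, and Epcam, Cdh1, Cldn7 and Cldn3 were not analysed here, nor were Cd3e, Itgam, Adgre1 and Itgax of the leukocyte list. Of 8 leukocyte markers, 4 were listed and none reached 1 TPM in any library, with a summed level of 0.16 to 1.04 TPM, and 2 endothelial markers summed to at most 0.28 TPM. Csf1r, the 1 leukocyte marker that could be tested, was called lower with IFN-γ in siR_Nostrill cells in the same fit. The part of these markers in the members' results was not tested.

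Without IFN-γ, members differed widely in level in siR_Ctrl cells. On the TPM scale, Psme2 was highest at 276 ± 46.2 (SD, n = 3), followed by Tapbp at 188 ± 22.8 and Psme1 at 169 ± 11.7. Psmb10 was at 57.2 ± 11.9, Tap2 at 30.5 ± 3.23 and Psmb8 at 17.6 ± 2.89. Erap1 at 10.8 ± 4.09, Tapbpl at 7.98 ± 0.935, Psmb9 at 4.06 ± 0.63 and Tap1 at 3.97 ± 1.29 were lowest. In this order the libraries of neighbours overlapped only for Tapbp with Psme1, Erap1 with Tapbpl, and Psmb9 with Tap1. PA28 and tapasin transcripts were thus abundant before any interferon, whereas Psmb9 and Tap1 were scarce.

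**Figure D1:**
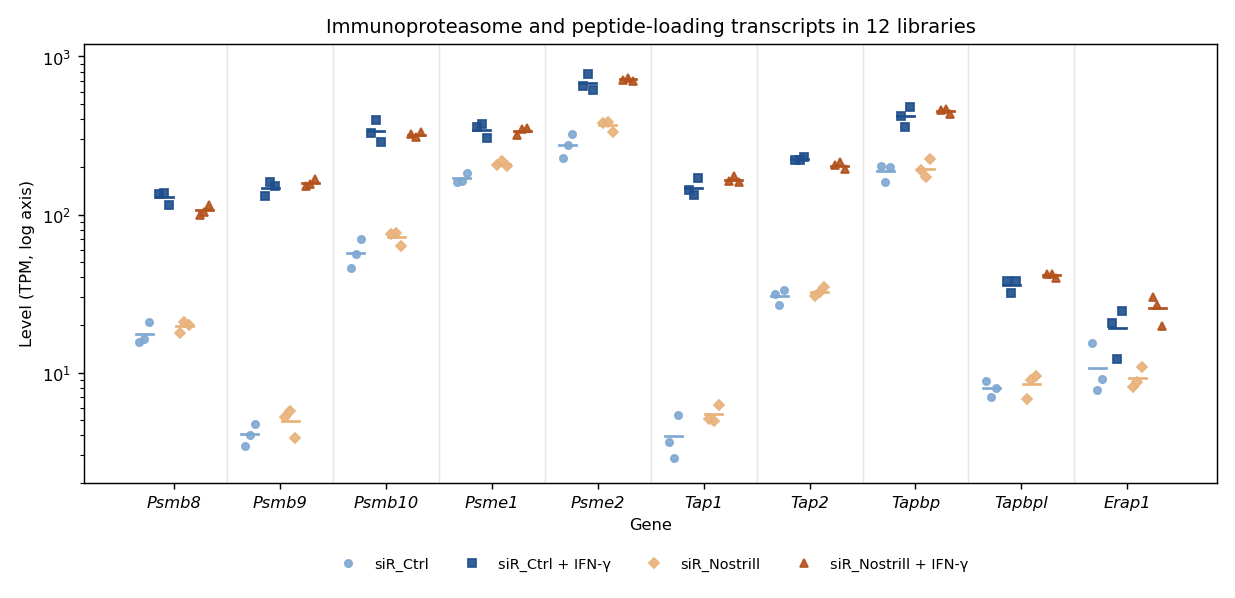
Level of each member in TPM on a log axis for the 12 libraries, with a bar at the mean of each condition (n = 3). With either siRNA, the libraries with IFN-γ stand above those without for 9 members, and in siR_Ctrl the Erap1 libraries overlap (12.21 TPM with IFN-γ against 15.42 TPM without).

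IFN-γ raised all 10 members in siR_Ctrl cells, from 2.07-fold for Erap1 to 41.3-fold for Tap1 (edgeR's quasi-likelihood test, Benjamini-Hochberg adjusted over 11900 genes). By the same rule, 4.71% of all tested genes rose. The median log2 fold change was 2.53 over the members and -0.01 over all tested genes. On log2 CPM (counts scaled for library size, with TMM factors), the lowest library with IFN-γ was above the highest without it for all 10 members, against 9.57% of all tested genes. Samples are bulk, so more RNA per cell and more responding cells cannot be told apart. The methods describe biological triplicates, the labels do not, and p-values measure the spread between these libraries, which may be technical.

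Among the catalytic subunits, Psmb9 responded most. Its levels in siR_Ctrl libraries 1 to 3 were 3.44, 4.05 and 4.7 TPM without IFN-γ and 130.86, 161 and 150.99 TPM with it. The groups were far apart, and the log2 fold change was 5.32 ± 0.274 (SE; 39.9-fold, adjusted p = 1.12e-07). Only 22 to 35 reads per library lay behind the levels without IFN-γ, which makes this fold less precise than its size implies. Psmb8 stood at 15.58, 16.4 and 20.94 TPM without IFN-γ and at 135.07, 137.84 and 114.44 TPM with it. This was a log2 fold change of 3.04 ± 0.236 (8.2-fold, adjusted p = 4.4e-06). The study lists RT-PCR primers for Psmb8, and whether the gene was chosen on these libraries is not stated in the sources used here. Psmb10 was at 45.91, 55.9 and 69.68 TPM without IFN-γ and at 328.28, 394.74 and 288.26 TPM with it, a log2 fold change of 2.73 ± 0.288 (6.62-fold, adjusted p = 7.21e-05). Psmb10 thus had the smallest fold of the 3 catalytic subunits and the highest level in every siR_Ctrl library.

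The PA28 subunits began high and rose less. Psme1 was at 161.28, 163.97 and 182.73 TPM without IFN-γ and at 356.33, 372.6 and 305.91 TPM with it. Its log2 fold change was 1.2 ± 0.208 (2.29-fold, adjusted p = 0.00417). Psme2 was at 229.4, 277.3 and 321.72 TPM without IFN-γ and at 654.32, 773.79 and 610.05 TPM with it, a log2 fold change of 1.46 ± 0.254 (2.75-fold, adjusted p = 0.0042). Neither pair of groups overlapped, and neither gene passed in a fit of only the groups compared. Psme2 has a near-identical copy, Psme2b, which took from 0% to 1.77% of the reads of the pair. The TPM ratio of Psme1 to Psme2 was 0.621 ± 0.0722 without and 0.509 ± 0.0322 with IFN-γ.

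The 2 transporter chains started at different levels and came closer. Tap1 was at 3.65, 2.86 and 5.39 TPM without IFN-γ and at 142.47, 132.71 and 169.19 TPM with it, a log2 fold change of 5.37 ± 0.204 (adjusted p = 8.08e-09). Tap2 was at 31.43, 26.85 and 33.09 TPM without IFN-γ and at 220.2, 221.25 and 231.65 TPM with it, a log2 fold change of 3.05 ± 0.138 (8.27-fold, adjusted p = 3.43e-08). Tap1 and Tap2 encode the 2 chains of one transporter, and Tap1 was the scarcer transcript in both conditions. The TPM ratio of Tap1 to Tap2 went from 0.129 ± 0.0302 without to 0.659 ± 0.0661 with IFN-γ (SD, n = 3), and the 3 ratios with IFN-γ, 0.6 to 0.73, all lay above those without, 0.107 to 0.163. In siR_Nostrill cells the ratio went from 0.167 ± 0.0134 to 0.816 ± 0.0206. Its values with IFN-γ, 0.7945 to 0.8356, lay above those of siR_Ctrl, while the values without IFN-γ overlapped. The siRNA difference in this ratio was not tested. In siR_Ctrl cells Tap1 and Psmb9, which share the promoter stretch printed above, ranked 29 and 30 by log2 fold change among the 11900 tested genes. Their mean levels with IFN-γ were alike, at 148 ± 18.9 and 148 ± 15.4 TPM.

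The tapasin pair also rose. Tapbp was at 203.45, 161.74 and 198.63 TPM without IFN-γ and at 418.68, 359.69 and 477.69 TPM with it, a log2 fold change of 1.31 ± 0.088 (2.48-fold, adjusted p = 1.16e-06). Tapbpl was at 8.9, 7.03 and 8.01 TPM without IFN-γ and at 37.75, 31.79 and 38.1 TPM with it, a log2 fold change of 2.33 ± 0.118 (5.04-fold, adjusted p = 9.49e-08). The minor member of the pair had the larger fold, and it remained well below Tapbp in TPM.

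Erap1, the trimming enzyme, had the smallest fold among the members in the edgeR fit. It was at 15.42, 7.76 and 9.09 TPM without IFN-γ and at 20.69, 12.21 and 24.35 TPM with it. The TPM groups overlapped because replicate 1 without IFN-γ was above replicate 2 with it, while the counts of 436 to 592 reads and of 849 to 1177 reads did not overlap. The log2 fold change was 1.05 ± 0.129 (adjusted p = 2.64e-04). Erap1 is the longest member, and replicate 1 without IFN-γ is the library with the strongest length-related deviation (Spearman coefficient 0.826). The part of length in the TPM overlap was not tested. With the length trend removed from each library, the log2 fold change was 1.2 ± 0.08 and Psme1 was the smallest, at 1.09 ± 0.082.

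With IFN-γ the order of levels changed. Psme2 remained highest, at 679 ± 84.7 TPM, and Erap1 became lowest, at 19.1 ± 6.23 TPM. Psme1, at 345 ± 34.8 TPM, and Psmb10, at 337 ± 53.8 TPM, now overlapped, while Tapbp and Psme1 overlapped as they had without IFN-γ. The levels of Tap1, Psmb9 and Psmb8 lay next to each other between 114.44 and 169.19 TPM, with overlap between Tap1 and Psmb9 and between Psmb9 and Psmb8.

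In siR_Nostrill cells IFN-γ raised 8 of the 10 members, where 5.24% of all tested genes rose. The log2 fold changes were 4.86 ± 0.265 for Psmb9 (28.9-fold), 4.78 ± 0.197 for Tap1 (27.5-fold), 2.48 ± 0.135 for Tap2, 2.27 ± 0.229 for Psmb8, 2.12 ± 0.117 for Tapbpl, 1.98 ± 0.28 for Psmb10, 1.32 ± 0.129 for Erap1 and 1.05 ± 0.087 for Tapbp. The adjusted p-values of these 8 genes were at most 8.42e-04. Psme1 and Psme2 did not pass, with log2 fold changes of 0.52 ± 0.205 (adjusted p = 0.169) and 0.78 ± 0.25 (adjusted p = 0.0931). Psme1 passed in 2 of the 9 alternative fits and Psme2 in 5, DESeq2 among them (adjusted p = 0.0298). In this comparison DESeq2 called 841 of 14993 genes higher.

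The PA28 pair was nevertheless separated by IFN-γ in these libraries. In siR_Nostrill cells Psme1 was at 207.28, 217.88 and 203.06 TPM without IFN-γ and at 317.09, 345.83 and 352.78 TPM with it. Psme2 was at 380.23, 386.33 and 334.99 TPM without IFN-γ and at 713.97, 732.47 and 699.88 TPM with it. The groups did not overlap for any of the 10 members on log2 CPM, against 18.5% of all tested genes that lay wholly higher. Both PA28 transcripts are short, at effective lengths of 741 and 660 nt. With the length trend removed, their log2 fold changes were 0.76 ± 0.081 (adjusted p = 1.46e-05) and 1.04 ± 0.101 (adjusted p = 5.26e-06), all 10 members passed, and 9.71% of all tested genes rose.

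The levels of the other members in siR_Nostrill cells followed the same pattern of separation. Psmb9 was at 5.23, 5.71 and 3.87 TPM without IFN-γ and at 152.57, 155.08 and 168.8 TPM with it. Tap1 was at 5.12, 4.97 and 6.25 TPM without IFN-γ and at 162.53, 175.42 and 161.81 TPM with it. Psmb8 was at 17.92, 20.97 and 19.89 TPM without IFN-γ and at 99.58, 103.79 and 114.91 TPM with it. In each of these genes the lowest level with IFN-γ exceeded the highest without. Psmb10 rose from 71.9 ± 7.4 to 321 ± 12.1 TPM, Tap2 from 32.6 ± 2.05 to 204 ± 10.5 TPM and Tapbp from 196 ± 26.5 to 453 ± 15.4 TPM. Tapbpl rose from 8.42 ± 1.48 to 41.2 ± 1.17 TPM and Erap1 from 9.24 ± 1.47 to 25.7 ± 5.31 TPM.

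**Figure D2:**
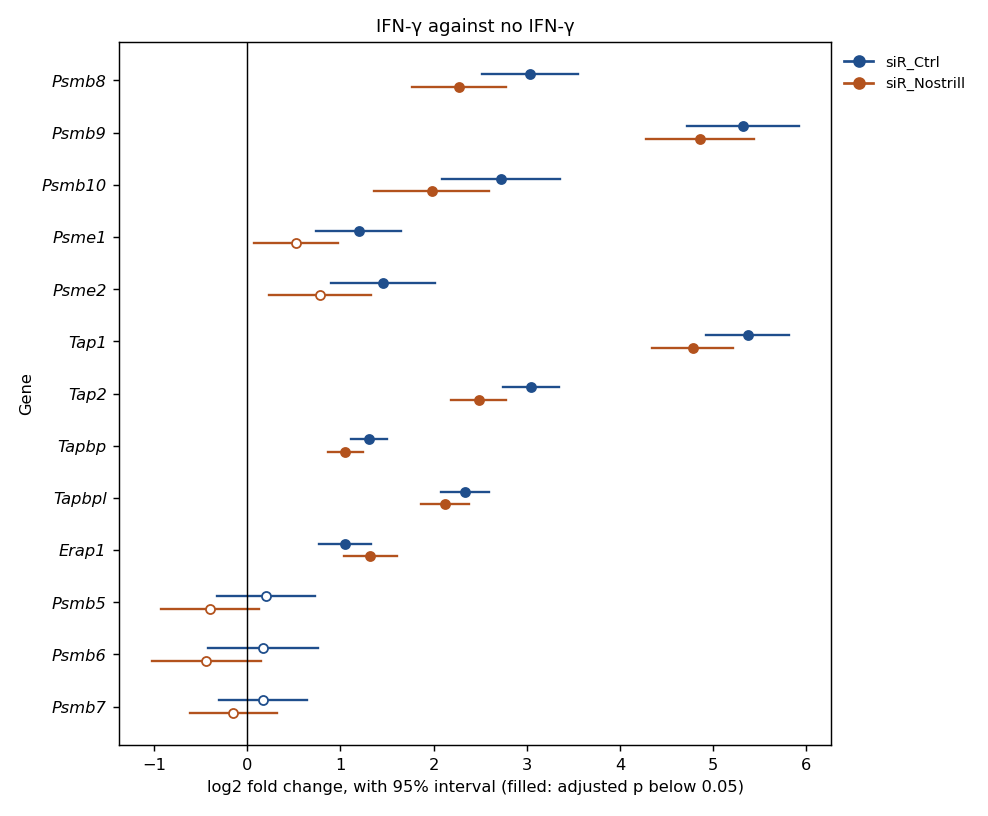
Log2 fold change with IFN-γ for the 10 members and the 3 constitutive catalytic subunits, with 95% intervals, in siR_Ctrl (blue) and siR_Nostrill (orange) cells, with filled points for adjusted p below 0.05. All members are filled in siR_Ctrl, Psme1 and Psme2 are open in siR_Nostrill, and Psmb5, Psmb6 and Psmb7 are open in both.

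Exchange of catalytic subunits was then read from the ratio of each inducible transcript to its constitutive counterpart, as log2 of the FPKM values with 0.1 added. IFN-γ increased the Psmb9 to Psmb6 ratio by 5.12 in siR_Ctrl and by 5.24 in siR_Nostrill cells, a mean of 5.18 (36.3-fold). It increased the Psmb8 to Psmb5 ratio by 2.82 and 2.65, a mean of 2.73 (6.65-fold), and the Psmb10 to Psmb7 ratio by 2.54 and 2.07, a mean of 2.31 (4.94-fold). Each mean had p = 0.005 in an exact two-sided permutation test within siRNA, the smallest that the 400 arrangements allow. Over the family of 6 ratio tests, adjustment left these at 0.01.

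As a share of the summed TPM of its pair, Psmb9 went from 0.937 ± 0.097% to 25.5 ± 2.78% in siR_Ctrl cells and from 1.01 ± 0.136% to 28.4 ± 0.133% in siR_Nostrill cells. Psmb8 went from 3.27 ± 0.426% to 19.3 ± 0.608% and from 3.27 ± 0.364% to 17.5 ± 1.37%. Psmb10 went from 9.14 ± 0.973% to 36.9 ± 3.69% and from 10.01 ± 0.988% to 31.9 ± 1.21%. In every library the constitutive transcript remained the larger of its pair. These are shares of RNA and not of assembled proteasomes. The siRNA moved the ratios by -0.08 for Psmb8 to Psmb5 (p = 0.315), 0.16 for Psmb9 to Psmb6 (p = 0.115) and -0.09 for Psmb10 to Psmb7 (p = 0.505) in the exact permutation test within IFN-γ state, and each adjusted p was at least 0.172. These are means over both IFN-γ states. Without and with IFN-γ the differences were 0.0 and -0.17 for Psmb8 to Psmb5, 0.1 and 0.22 for Psmb9 to Psmb6, and 0.15 and -0.32 for Psmb10 to Psmb7, which turned sign between the states. The Psmb10 shares with IFN-γ, 33.85 to 40.98% in siR_Ctrl and 30.76 to 33.16% in siR_Nostrill cells, did not overlap, and no test was run within 1 state.

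**Figure D3:**
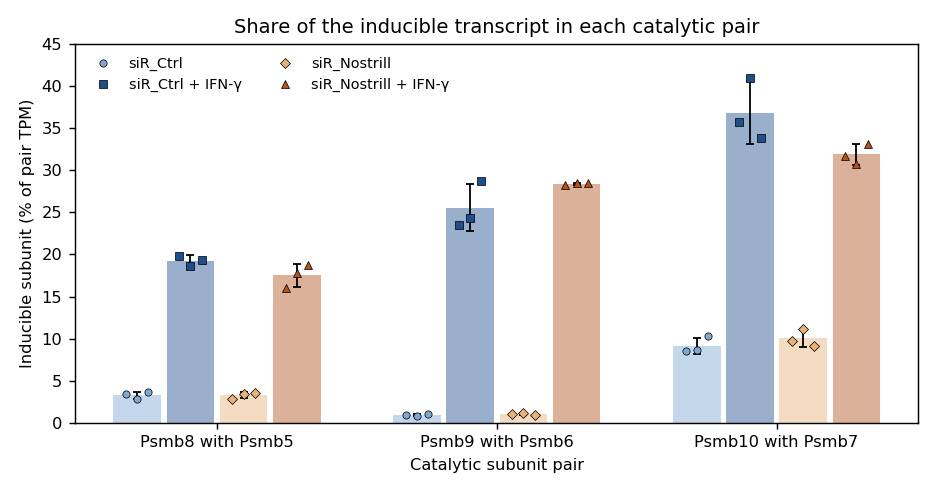
Share of the inducible transcript in the summed TPM of each catalytic pair, with bars for means, error bars for SD and a point per library (n = 3). Every library with IFN-γ lies above every library without it, and no share exceeds 40.98%.

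In the edgeR fit of all libraries the constitutive core gave no call where the inducible subunits did. Of 14 genes for the 20S core (Psma1 to Psma7 and Psmb1 to Psmb7), 0 passed in any of the 5 comparisons. In the 4 comparisons other than the interaction 0 had an unadjusted p below 0.05, where 1643 to 2606 of 11900 tested genes had one. In the interaction 1 did, where 10.7% of all tested genes did. DESeq2 likewise called 0 of the core, where it called from 0 to 1330 of 14993 genes per comparison. In siR_Ctrl cells the log2 fold changes of the core with IFN-γ ran from 0.08 to 0.42, with 0.2 ± 0.239 for Psmb5, 0.17 ± 0.267 for Psmb6 and 0.17 ± 0.213 for Psmb7. In siR_Nostrill cells they ran from -0.436 to 0.055, with 2 of the 14 above 0, and 8 of the 14 with the length trend removed. Psmb5 was at 445.38 to 568.96 TPM without and 477.37 to 602.06 TPM with IFN-γ in siR_Ctrl cells. With the length trend removed, 1 of the 14 passed with IFN-γ in siR_Ctrl and 2 in siR_Nostrill cells, all higher, where 9.45% and 9.71% of all tested genes rose. Between the siRNAs with IFN-γ 2 passed, 1 higher and 1 lower, where 9.85% of all tested genes passed. A fit of only the groups compared called 2 lower with IFN-γ in siR_Nostrill cells, Psmb4 and Psmb5, where it called 7.1% of all tested genes lower. The list of other activators and assembly factors was also without a call: of 8 tested, 0 passed with IFN-γ in the edgeR fit of all libraries. With IFN-γ in siR_Nostrill cells 2 had an unadjusted p below 0.05, 1 higher and 1 lower, where 2606 of 11900 tested genes had one. In siR_Ctrl cells 1 had an unadjusted p below 0.05 with IFN-γ, where 1742 of 11900 tested genes had one. That gene was Psmg4, an assembly chaperone, at a log2 fold change of 1.05 ± 0.28 (adjusted p = 0.0546), and DESeq2, limma and the fit with the length trend removed each called it. In siR_Nostrill cells its IFN-γ difference was -0.22 ± 0.274 (adjusted p = 0.64). Its levels without IFN-γ were 67.23, 74.14 and 83.65 TPM in siR_Ctrl and 133.35, 141.99 and 119.19 TPM in siR_Nostrill cells, which did not overlap (log2 difference 1.01 ± 0.28, adjusted p = 0.195). DESeq2 and the fit with the length trend removed called this difference too, where they called 1.77% and 2.63% of genes. On log2 CPM, 18% of all tested genes did not overlap between the siRNAs without IFN-γ. Pomp, which guides maturation of new cores, had 0.41 ± 0.266 (adjusted p = 0.561), and Psmb11, the subunit of thymic cortical epithelium, was at most 0.04 TPM.

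Of 12 other genes of class I loading and peptide trimming that were tested, 2 rose with IFN-γ in siR_Ctrl cells, where 4.71% of all tested genes rose, and 2 in siR_Nostrill cells, where 5.24% did. None passed as lower in the edgeR fit of all libraries with TMM factors and the default filter. The count of lower genes in siR_Nostrill cells rested on Thop1, a cytosolic peptidase, at -0.46 ± 0.125 (adjusted p = 0.0531). DESeq2 and limma called it, as did edgeR with DESeq2 size factors, with a stricter filter, with a replicate block, on only the groups compared and with the length trend removed. In that last fit 5 of the 12 passed, 4 higher and 1 lower, where 14.6% of all tested genes passed in either direction. In siR_Ctrl cells B2m, the light chain of class I molecules, rose from 424 ± 20.1 to 703 ± 70.4 TPM (0.88 ± 0.128 on the log2 scale, adjusted p = 0.00114). Lap3, a cytosolic aminopeptidase, rose from 128 ± 9.91 to 204 ± 23 TPM (0.82 ± 0.095, adjusted p = 1.56e-04). The same 2 genes passed in siR_Nostrill cells, at 1.16 ± 0.129 for B2m and 0.65 ± 0.095 for Lap3. B2m levels with IFN-γ were 627.47 to 766.96 TPM in siR_Ctrl and 946.63 to 1085.37 TPM in siR_Nostrill cells and did not overlap. In the edgeR fit of all libraries this log2 difference was 0.41 ± 0.127 and did not pass (adjusted p = 0.158). On log2 CPM, 21.4% of all tested genes did not overlap in this comparison. Between the siRNAs with IFN-γ, 0 of the 12 passed in the edgeR fit of all libraries, where 0.429% of all tested genes did. At an unadjusted p below 0.05 there were 1 higher and 1 lower, where 14.5% of all tested genes had one. With the length trend removed 1 passed, higher, where 9.85% did. The chaperones of the loading complex gave -0.13 ± 0.101 for Calr, -0.12 ± 0.1 for Canx and 0.03 ± 0.1 for Pdia3 in siR_Ctrl cells, none of which passed.

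Transcription factors known to drive class I and immunoproteasome genes were measured in the same libraries. In siR_Ctrl cells Nlrc5, the transactivator of class I genes, rose with IFN-γ by a log2 fold change of 4.85 ± 0.185. Irf1 rose by 3.57 ± 0.101 and Irf2 by 1.25 ± 0.215. The subunits of the RFX complex, Rfx5, Rfxap and Rfxank, had 0.56, 0.23 and -0.01 and did not pass. In siR_Nostrill cells Nlrc5, Irf1 and Irf2 also passed, at 4.83 ± 0.184, 3.23 ± 0.1 and 1.41 ± 0.216, and Rfx5 passed at 0.86 ± 0.198 (adjusted p = 0.0223), a call that limma did not make. Rfxap had -0.47 ± 0.151 with IFN-γ in siR_Nostrill cells (adjusted p = 0.0956) and a log2 difference of -0.6 ± 0.151 between siR_Nostrill and siR_Ctrl cells with IFN-γ (adjusted p = 0.101). The edgeR fit of all libraries called neither, while DESeq2 and the fit with the length trend removed called both. DESeq2 called 1330 of 14993 genes for the first difference and 596 for the second. The fit with the length trend removed called 14.6% and 9.85% of all tested genes. Rfxap levels with IFN-γ were 34.99 to 38.79 TPM in siR_Ctrl and 25.28 to 27.96 TPM in siR_Nostrill cells and did not overlap. On log2 CPM, 21.4% of all tested genes did not overlap between the siRNAs with IFN-γ.

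Without IFN-γ, siR_Nostrill against siR_Ctrl gave log2 differences above 0 for all 10 members, none of which passed the adjusted threshold. Over all tested genes, 0.218% passed in either direction. At an unadjusted p below 0.05 there were 5 members (Tap1, Tapbp, Psme1, Psme2 and Tapbpl), where 13.8% of all tested genes had one. Tap1 had the largest difference, 0.62 ± 0.189 (1.54-fold, adjusted p = 0.227). With 1 library left out it ran from 0.46 to 0.955, the highest without siR_Ctrl replicate 3, where Tap1 passed. The share of all tested genes called in that fit is not given here. DESeq2 called Tap1 alone (adjusted p = 0.0484), where it called 1.77% of genes. Tap1 in siR_Nostrill libraries was above the highest siR_Ctrl library in 1 of 3 by TPM, 6.25 against 5.39, and on log2 CPM the groups did not overlap for Psme1, Tap1, Tap2 and Tapbp, against 18% of all tested genes.

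Levels of the same genes show the size of these differences, which were not estimated closely. Psme1 was at 169 ± 11.7 TPM in siR_Ctrl and 209 ± 7.64 TPM in siR_Nostrill cells (log2 difference 0.49 ± 0.206, adjusted p = 0.347). Psme2 was at 276 ± 46.2 and 367 ± 28.1 TPM (0.59 ± 0.251, adjusted p = 0.351). The Psme2 difference was 0.363 without siR_Ctrl replicate 1, and removing the length trend gave 0.31 ± 0.101 for Psme2 and 0.22 ± 0.082 for Psme1. Erap1 had 0.05 ± 0.129, the smallest difference in this fit, and its sign turned under 3 of the alternatives. Without the length trend it was 0.22 ± 0.081 (adjusted p = 0.191) and the smallest were Psmb8 at 0.12 ± 0.132 and Psmb9 at 0.12 ± 0.184. The 14 constitutive core genes also lay above 0 in this comparison, all 14 of them, with a median of 0.32 against 0.37 for the members and 0.01 for all tested genes. With the length trend removed the medians were 0.05 for the core and 0.23 for the members, 0 members passed, and 2.63% of all tested genes did.

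With IFN-γ present, siR_Nostrill against siR_Ctrl gave differences on both sides of 0, with 3 members above and 7 below, and none passed. The signs of Psmb9, Psmb10, Psme1, Psme2, Tap1 and Tapbp turned under at least 1 alternative. Over all tested genes, 0.429% passed and 14.5% had an unadjusted p below 0.05. The 2 members with an unadjusted p below 0.05 were Tap2, at -0.29 ± 0.127 (adjusted p = 0.325), and Erap1, at 0.32 ± 0.126 (adjusted p = 0.27, and 0.2 ± 0.076 without the length trend). DESeq2 called 0 members, where it called 596 of 14993 genes. Tap2 was the one member whose groups did not overlap on log2 CPM, with siR_Nostrill lower, against 21.4% of all tested genes in either direction. Its TPM values, 220.2, 221.25 and 231.65 in siR_Ctrl and 204.56, 214.57 and 193.64 in siR_Nostrill cells, were also apart. Leaving out 1 library gave differences from -0.37 to -0.15 for Tap2, the smallest without siR_Ctrl + IFN-γ replicate 2.

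Psmb8 had the lowest estimate in this comparison, -0.44 ± 0.214 (0.738-fold, 95% interval -0.91 to 0.03, adjusted p = 0.378). Leaving out 1 library moved it from -0.61 to -0.23, the latter without siR_Ctrl + IFN-γ replicate 2. Its levels with IFN-γ were 135.07, 137.84 and 114.44 TPM in siR_Ctrl and 99.58, 103.79 and 114.91 TPM in siR_Nostrill cells, which overlapped in 1 library of each group. With the length trend removed, Psmb8 passed at -0.38 ± 0.11 (adjusted p = 0.0433), the one member to do so, and 9.85% of all tested genes passed. Removing any 1 library as well gave adjusted p-values from 0.0159 to 0.158, and the call was lost without siR_Ctrl + IFN-γ replicate 1 or 2, siR_Nostrill + IFN-γ replicate 1 or 2, or siR_Nostrill replicate 3. Psmb9 and Tap1, the strongest responders, had -0.05 ± 0.207 and 0.04 ± 0.164, with 95% intervals of -0.5 to 0.41 and -0.32 to 0.4, and both signs turned with the processing. The interval of Tapbp was the narrowest, at -0.21 to 0.17 around -0.02, and this sign also turned.

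**Figure D4:**
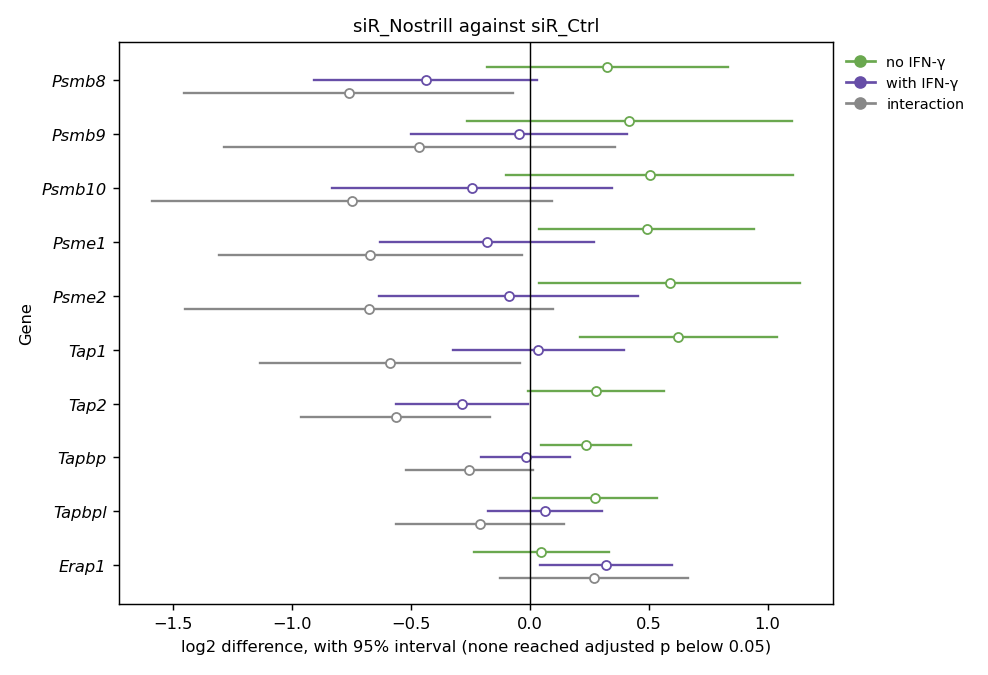
Log2 difference of siR_Nostrill from siR_Ctrl without IFN-γ (green) and with IFN-γ (purple), and the interaction (grey), with 95% intervals for the 10 members. All points are open because none had an adjusted p below 0.05, and the 10 green points lie above 0.

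The interaction, the IFN-γ effect in siR_Nostrill cells minus that in siR_Ctrl cells, was below 0 for 9 of the 10 members and above 0 for Erap1, at 0.27 ± 0.18, whose sign turned with the length trend removed. None passed, where 0% of all tested genes passed. At an unadjusted p below 0.05 there were 4 members, Tap2 (-0.57 ± 0.181), Tap1 (-0.59 ± 0.25), Psmb8 (-0.76 ± 0.315) and Psme1 (-0.67 ± 0.29), where 10.7% of all tested genes had one. With 1 library left out the Tap1 value ran from -0.92 without siR_Ctrl replicate 3 to -0.42 without siR_Ctrl replicate 1, and removal of the length trend took Psme1 to -0.33 ± 0.114 and Psmb8 to -0.5 ± 0.171. DESeq2 called 0 members and had 5 at an unadjusted p below 0.05, where 1485 of 14993 genes had one and 0 passed. The smallest adjusted p among the members was 0.43. The 14 constitutive core genes were all below 0 as well, with a median of -0.37 against -0.58 for the members and 0.01 for all tested genes. With the length trend removed the medians were -0.09 for the core, -0.33 for the members and -0.09 for all tested genes, 7 members had an unadjusted p below 0.05 where 17.5% of all tested genes did, and again 0% of genes passed after adjustment. The siR_Ctrl libraries without IFN-γ enter this term and the siRNA difference at rest, so the 2 are not separate results.

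The pattern of each member over the 12 libraries was compared with 10696 other genes by the Pearson coefficient of log2 CPM. These libraries fall into 2 sets by IFN-γ, so high coefficients mostly follow that split and are a description only. The most similar gene was Gbp3 for Tap1 (0.9987), Parp10 for Tap2 (0.9984), Xaf1 for Tapbp (0.9981), Ly6c1 for Psmb9 (0.9976) and Gbp6 for Tapbpl (0.997). It was Cebpd for Psmb8 (0.9955), H2-T22 for Psmb10 (0.9943), Samd9l for Erap1 (0.9934), Bst2 for Psme2 (0.9931) and Psme2 for Psme1 (0.9888). Other members appeared among the 3 most similar genes of Psmb8 (Tap2), Psme1 (Psme2), Psme2 (Psme1) and Tapbp (Tap1).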

How the data were processed

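For each gene in each library the authors deposited an estimated count, an FPKM and a TPM value. According to the methods, SOAPnuke cleaned the reads, and HISAT2 and Bowtie2 aligned them to GRCm38.p6. The sources used here do not name the tool that counted them. The members and gene lists were chosen with earlier results of these data known.

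Counts were rounded and tested with edgeR 4.0.16 in R 4.3.3 (TMM normalization, default filter on low counts, quasi-likelihood test, all 12 libraries in 1 fit, Benjamini-Hochberg adjustment over 11900 genes, threshold 0.05). The fit and the permutation test were checked on simulated data. Levels are given in TPM because the deposited FPKM sums to 570935 to 794809 per library and the TPM to nearly the same total in each. Ratios were tested on log2(FPKM + 0.1) with exact permutation tests. Alternatives were DESeq2 1.42.0, its size factors, limma 3.58.1 on log2 FPKM, other filters, a fit of only the groups compared, a replicate block, each library left out in turn, and removal of a lowess trend on transcript length from each library (span 0.3). Fits with the length trend removed and 1 library left out were an alternative added after seeing the data. No replicates were near-identical (chi-square over degrees of freedom 6.72 to 101). Every member was named. Of each list at most 5 genes were named, those with the largest change among the called, otherwise in order of name, with Psmb5, Psmb6 and Psmb7 always. For each member, the 3 genes with the highest Pearson coefficient were also taken. One gene of the transcription factor list is not reported here. Promoter windows came from a RefSeq table of GRCm38.p6. Psmb4, Psmg4, Pdia3, Thop1, Rfxap and Rfxank fall outside this rule and were named after their values were seen.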

Additional observations from a re-analysis of the deposited data

How the results depend on the processing

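All 10 members rose with IFN-γ in siR_Ctrl cells under every alternative run except a fit of only the groups compared, where 8 passed and Psme1 and Psme2 did not, and the cause was not tested. In siR_Nostrill cells 8 to 10 members passed. The edgeR fit of all libraries called 8, where 5.24% of all tested genes rose. DESeq2 called 9, where 841 of 14993 genes rose. The fit with the length trend removed called 10, where 9.71% of all tested genes rose. Shares of genes that rose in the other fits, among them that of only the groups compared, are not given here. Without IFN-γ, siR_Nostrill against siR_Ctrl gave 1 called member with DESeq2, where 1.77% of genes were called. It gave 0 to 1 when a library was left out (Tap1 without siR_Ctrl replicate 3). Shares of all tested genes called with a library left out are not given here. With IFN-γ the siRNA comparison gave 1 with the length trend removed, where 9.85% of all tested genes passed. Leaving out a library gave 0 called members in the comparison with IFN-γ and in the interaction. The siRNA effect on the Psmb9 to Psmb6 ratio ran from 0.114 to 0.217 with a library left out, with permutation p from 0.04 to 0.225, and the lowest p came without siR_Ctrl + IFN-γ replicate 3. Signs of uncalled differences turned. With IFN-γ, Psmb9 gave 0.031 with limma at either pseudocount, 0.03 with the length trend removed and -0.151 to 0.191 with a library left out. Psme2 gave 0.003 with limma and -0.261 to 0.191 with a library left out, Tapbp 0.043 and 0.044 with limma and -0.041 to 0.01, Tap1 -0.045 with the length trend removed and -0.01 to 0.095, Psmb10 -0.44 to 0.058 and Psme1 -0.356 to 0.042. Without IFN-γ, Erap1 gave -0.011 and -0.01 with limma and -0.022 to 0.152 with a library left out, and its interaction gave -0.019 with the length trend removed. Same-numbered libraries correlated from -0.696 to 0.887. The deviations of the libraries also followed transcript length, so these values cannot decide whether the numbers pair them. The replicate block called the same members with IFN-γ as the fit without it, and none in the other 3 comparisons. The share of all tested genes called with the block is not given here. It gave a permutation p of 0.0312 for each ratio with IFN-γ, the smallest that the block allows. Depth limits the levels of Psmb9 without IFN-γ, which rest on 22 to 47 reads per library.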
